A study of Homo sapiens with 78 samples.

Results

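The 122 genes described here are those whose mRNA budesonide raised and interleukin (IL)-1β lowered after 6 h in A549, a long-established human cell line grown from a lung carcinoma and epithelial in kind. They were selected on the 6 h libraries of the deposited table of TPM values, a level scaled by transcript length and library and rescaled between libraries by the authors: a gene was kept when its group mean of log2(TPM + 0.5) was higher with budesonide than in unstimulated (NS) cells by 1 or more, was lower with IL-1β than in NS by 0.5 or more, and when its mean level with budesonide was 3 TPM or more. The table lists 19652 genes, of which 13327 had 1 TPM or more in at least 3 libraries and were tested. All 122 genes passed that filter, and every one holds at 6 h the pattern that chose it, so the 6 h values below are a description without a test.

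The study examined how the glucocorticoid receptor (GR) and nuclear factor-κB (NF-κB) regulate the BIRC3 and BIRC2 genes in pulmonary epithelial cells. Its RNA sequencing served to look more widely at genes involved in apoptosis. Wild-type A549 cells at confluence, kept overnight without serum, were left unstimulated (NS) or were given IL-1β at 1 ng/ml, the inhaled glucocorticoid budesonide at 300 nM, or IL-1β-plus-budesonide, called the cotreatment here. Poly(A) RNA was sequenced after 1, 2, 6, 12 and 24 h, which makes 20 groups and 78 libraries, with 4 libraries a group except for NS at 6 h and the cotreatment at 12 h, which held 3 each. All groups come from 1 carcinoma line. By the labels the libraries came from 4 independent experiments, so the libraries of 1 experiment may be related, and the p-values measure the spread between libraries.

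Budesonide enters the cell and binds GR, which moves to the nucleus, binds DNA at glucocorticoid response elements and raises transcription of genes such as those for its own chaperone and for proteins that curb growth and inflammation. IL-1β acts through its receptor, the adaptor MYD88 and the IκB kinases to free NF-κB, which drives chemokine and survival genes. Most accounts of the pair concern glucocorticoids lowering cytokine-driven genes, whereas the genes here show the opposite pairing, with the cytokine lowering what the glucocorticoid raises. Among genes tied to apoptosis, the study itself described budesonide-raised ones whose rise the cotreatment reduced on average.

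The libraries carried the marks of their labels. The 10 genes of an IL-1β check list all rose with IL-1β, with a median log2 difference of 5.48 over 1, 2, 12 and 24 h, and the summed level of 6 epithelial markers lay between 3884 and 22147 TPM, KRT8 among them, against at most 45.7 TPM for 10 immune, 27.1 TPM for 8 fibroblast and 2.19 TPM for 7 endothelial markers. Of the 10 immune markers, 2 were at 0 in every library. In 4 of the 78 libraries the distance from their own group was over 2 times the median, namely replicate 3 of budesonide at 2 h, and replicate 2 of IL-1β at 24 h, of budesonide at 12 h and of the cotreatment at 12 h. The counts led with below were 120, 82, 86, 91, 112 and 24 without them, against 119, 81, 85, 87, 111 and 27 with them. For the fit without them no shares of all tested genes are given. Read counts are not in the table used, which leaves sequencing depth unknown and gives no counting error. In such bulk libraries, fewer cells that make a transcript cannot be told from less of it per cell.

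Close to the limits of the rule, PRR15, ZHX3 and KYAT1 entered with budesonide differences of 1.02, 1.02 and 1.02, and RHOBTB3, JRK and IMPDH1 missed it at 0.98, 0.96 and 0.95. For IL-1β, NEXN, THBS1 and GSN entered at -0.50, -0.51 and -0.51, and PER2, HOXC13 and CST2 stayed out at -0.50, -0.49 and -0.47. In level, JPH2, GCOM1 and RBMS3 entered at 3.29, 3.32 and 3.38 TPM, and CDC42BPG, CLPSL2 and REEP1 stayed out at 2.63, 2.55 and 2.35 TPM. The list therefore ends in a continuum, and 91 genes met the rule with a pseudocount of 1, 147 with 0.1 and 108 to 116 when libraries of 1 replicate number were left out.

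Because the members rose with a GR ligand, the DNA around their starts was searched for the palindromic glucocorticoid element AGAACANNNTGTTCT, which reads the same on both strands and was allowed 1 mismatch in its 12 fixed letters. Within 5 kb on either side of the canonical start in GENCODE v44 on GRCh38, 9 of 121 members with a start held such a match (7.44%), beside 470 of the 13189 tested genes with a start (3.56%). The exact element was found at 0 members and at 18 of all those genes. In the shorter RefSeq promoters of GRCh38.p14, from 250 bases before to 50 bases after a start, 89 members had an entry. Of these, 1 (1.12%) held the element with up to 2 mismatches against 1.44% of all 27305 promoters, and 11 (12.4%) held the NF-κB motif known as the κB motif, searched on both strands, against 10.8% of all promoters. A match is only a run of letters, and no binding was measured in these libraries.
The matches of 7 named members are given from 5′ to 3′ on the strand of the gene in GRCh38, with the element in capitals. They are shown because budesonide acts through GR and these are the closest letter matches to its element at members named below.
PER1, chr17:8154453-8154481, minus strand: agccaagAGAACATGATGTTCCcaagtgc
SCNN1A, chr12:6376311-6376339, minus strand: gtaaaaaAGAACAGAATGTCCTagggccc
THRA, chr17:40059938-40059966, plus strand: agcccagAGAACAGGCTGTTCCtgctacc
SLC22A5, chr5:132366049-132366077, plus strand: tctgtggAGAACACAAAGTTCTtaaggta
FBXL16, chr16:707296-707324, minus strand: caacacaAGCACAGCTTGTTCTctgcctg
ETNK2, chr1:204150347-204150375, minus strand: gctggtcAGGACATAGTGTTCTgggcaac
CCN2, chr6:131949349-131949377, minus strand: atgaagaAGAACATGATGTTCAtcaagac
The elements of PER1, SCNN1A, THRA, SLC22A5 and FBXL16 lay upstream of the canonical transcript, with centres 2063 bases, 762 bases, 3013 bases, 3647 bases and 1509 bases before the start. That of ETNK2 lay in an intron, 1683 bases after the start, and that of CCN2 in a coding exon, 2009 bases after the start. The remaining matches belonged to MUC3A, 3889 bases upstream, and PPL, 3971 bases into an intron, both named here because the search found them.

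Budesonide raised the genes with a delay in most of them, and the rise held to 24 h. The groups of the other times share no library with the rule, and there limma with Benjamini-Hochberg adjustment over all 13327 genes called 8 of 122 genes higher at 1 h (0.42% of all tested genes were called higher), 46 at 2 h (2.02%), 117 at 12 h (12.5%) and 116 at 24 h (19.5%), with 0 called lower at any of these times. With the replicate number as a block, 13 were called higher at 1 h (0.63% of all tested genes). The median log2 difference of the 122 genes from NS went from 0.07 after 1 h and 0.53 after 2 h to 1.45 after 12 h and 1.58 after 24 h, beside 1.48 at the 6 h that chose them. All genes tested had medians between -0.04 and 0.00. Averaged over 1, 2, 12 and 24 h, 119 of the 122 were called higher (16.6% of all tested genes), and 50 did so with a difference of 1 or more (1.28%). The 3 that were not called were FSIP1, SCG5 and TNS1, named for that after their values were seen, of which TNS1 was called with the block, at 0.56 ± 0.12 (adjusted p = 9.8e-05).

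Of the 8 genes already raised at 1 h, 7 are given here, likewise singled out for that. They were TSC22D3, an inhibitor of NF-κB and AP-1 also known as GILZ, with a log2 difference of 2.36 ± 0.12, the clock gene PER1 at 1.78 ± 0.16, ANGPTL4, an inhibitor of lipoprotein lipase, at 1.58 ± 0.18, the repressor BCL6 at 1.26 ± 0.25, the caveolar protein gene CAVIN2 at 1.13 ± 0.19, CCN2, a matricellular growth factor, at 0.94 ± 0.19, and CDC42EP3, an effector of CDC42, at 0.70 ± 0.15. The adjusted p of these 7 lay at or below 0.0037. FKBP5, the GR co-chaperone, was not among them: its difference after 1 h was -0.01 ± 0.10, after 2 h 2.14 ± 0.10 and after 12 h 4.24 ± 0.10. The peak of the rise, read as the time of the largest fitted difference with 6 h included, was 2 h for 1 gene, 6 h for 46, 12 h for 18 and 24 h for 57. The rule chose the genes for their rise at 6 h, which favours that time, so these counts do not rank 6 h against the others.

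**Figure D1:**
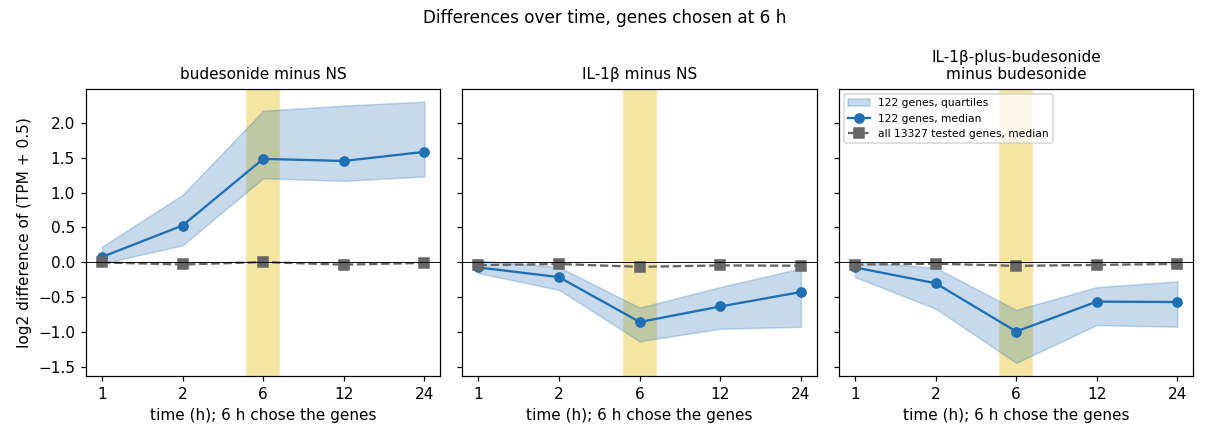
The x axes give time in hours and the y axes the log2 difference of (TPM + 0.5) for budesonide minus NS, IL-1β minus NS and cotreatment minus budesonide. Blue points and bands are the median and quartiles of the 122 genes, grey squares the median of all 13327 tested genes, and the yellow bar marks 6 h, whose libraries chose the genes. The budesonide median rises to 1.45 at 12 h and 1.58 at 24 h, while the IL-1β median is -0.64 at 12 h and -0.43 at 24 h.

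IL-1β alone lowered most of these genes at 12 h. The rule required all 122 to be lower at 6 h, so that time is not compared with the others. IL-1β lowered 1 gene at 1 h (0.45% of all tested genes were called lower), 21 at 2 h (7.59%), 76 at 12 h (20.8%) and 62 at 24 h (18.5%), and over the 4 times together 81 of 122 (27.6%). The median difference from NS went from -0.08 after 1 h and -0.22 after 2 h to -0.64 after 12 h and -0.43 after 24 h, beside -0.86 at the 6 h that chose the genes. With a difference of 1 or more required, 5 genes were called over the 4 times (0.255% of all tested genes). Lower at each of 2, 12 and 24 h were 13 genes, and 36 were called lower at none of these times, which is 10.7% and 29.5% of the members beside 2.27% and 69.6% of all tested genes. Over the 4 times limma called 1 member higher with IL-1β, ANGPTL4, at 0.38 (adjusted p = 0.00031), beside 18.3% of all tested genes. With the block, 4 genes were lower at 1 h (0.983%). Over the 4 times the block also called MT1X higher, at 0.40 ± 0.16 (adjusted p = 0.037). It called ITGB4 and SLC7A7 lower, at -0.21 ± 0.07 (adjusted p = 0.013) and -0.45 ± 0.05 (adjusted p = 4.2e-12).

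At 2 h the lowest differences with IL-1β were those of GADD45B, CCN2, C1orf116, PRR15 and TXNIP, the last of which binds thioredoxin and restrains growth, and C1orf116 and TXNIP are named for that. At 2 h the stress-induced growth regulator GADD45B differed from NS by -1.77 ± 0.24 (adjusted p = 1.3e-08), CCN2 by -1.76 ± 0.19 (adjusted p = 1.8e-11), PRR15 by -1.42 ± 0.25 (adjusted p = 1.3e-05) and CDC42EP3 by -1.24 ± 0.15 (adjusted p = 4.3e-10). GADD45B had stood above NS at 1 h, at 0.83 ± 0.24 (adjusted p = 0.039), as had PER1, at 0.87 ± 0.16 (adjusted p = 8.0e-05). These were the 2 members that IL-1β raised at 1 h, beside 2.04% of all tested genes. At 12 h it raised ANGPTL4, by 1.08 ± 0.18 (adjusted p = 1.4e-06), and PTK2B, a focal adhesion kinase relative, by 0.47 ± 0.19 (adjusted p = 0.043), beside 15.2% of all tested genes. At 24 h it raised 6 members beside 15.5% of all tested genes, namely GCOM1 by 1.54 ± 0.40, SLC51B, a subunit of a bile acid and steroid exporter, by 0.91 ± 0.30, ANKRD29 by 0.76 ± 0.27, PTK2B by 0.49 ± 0.19, CES4A by 0.47 ± 0.16 and the potassium channel subunit KCNG1 by 0.45 ± 0.17, and 10 with the block (18.1%). The 6 had adjusted p of up to 0.035. Those outside the named set are singled out because they rose. For GCOM1, 28.0% of its 31-base words also occur in transcripts of other genes, mainly MYZAP, so its reads may be split between them. The same limit holds for SCG5 and KYAT1, named above, with 49.6% and 53.6% of their words shared.

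In the cotreatment IL-1β lowered the budesonide-raised level of most of these genes, and at 12 h and 24 h most of them stayed above the NS level. Against budesonide alone, 1 gene was lower at 1 h (0.21% of all tested genes), 36 at 2 h (4.06%), 56 at 12 h (4.6%) and 58 at 24 h (5.61%), and over the 4 times 85 of 122 (12.1%). With the block, 3 were lower at 1 h (0.405%). Of the 85, 6 differed by 1 or more (0.113% of all tested genes). The median difference went from -0.08 after 1 h and -0.30 after 2 h to -0.57 after both 12 and 24 h, beside -0.996 at 6 h. Called higher in the cotreatment than with budesonide over the 4 times were 2 genes, ANGPTL4 and JPH2, beside 10.1% of all tested genes.

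Against NS, the cotreatment stood higher for 7 genes at 1 h (2.04% of all tested genes), 28 at 2 h (7.7%), 76 at 12 h (12.7%) and 92 at 24 h (17.3%), and over the 4 times for 87 of 122 (17.3%), with 27 at a difference of 1 or more (2.24%). With the block, 13 were higher at 1 h (2.52%). Its median difference from NS went from 0.16 after 2 h to 0.83 after 12 h and 1.04 after 24 h, beside 0.47 at 6 h. The mean of the cotreatment lay between those of NS and budesonide for 108 genes at 12 h and for 103 at 24 h. Earlier this held for fewer genes, 38 after 1 h, 60 after 2 h and 88 after the 6 h that chose them. At these earlier times the mean was at or below NS for 57, 42 and 31 genes, in that order. It was at or above budesonide for 31, 23 and 3. No such counts are given for all tested genes. Against IL-1β alone the cotreatment stood higher for 111 of 122 over the 4 times (17.4% of all tested genes), by a median of 0.93. At 2 h the cotreatment was below NS for 6 genes (6.78% of all tested genes), FRAT1, CCN2, PRODH, SBK3, PAQR7 and ANXA2R, of which SBK3 was also below NS at 12 h and 24 h and over the 4 times, and these are named for that alone. With the block, 11 were below NS at 2 h (9.36%), 2 at 12 h (21.2%) and 4 at 24 h (23.7%).

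**Figure D2:**
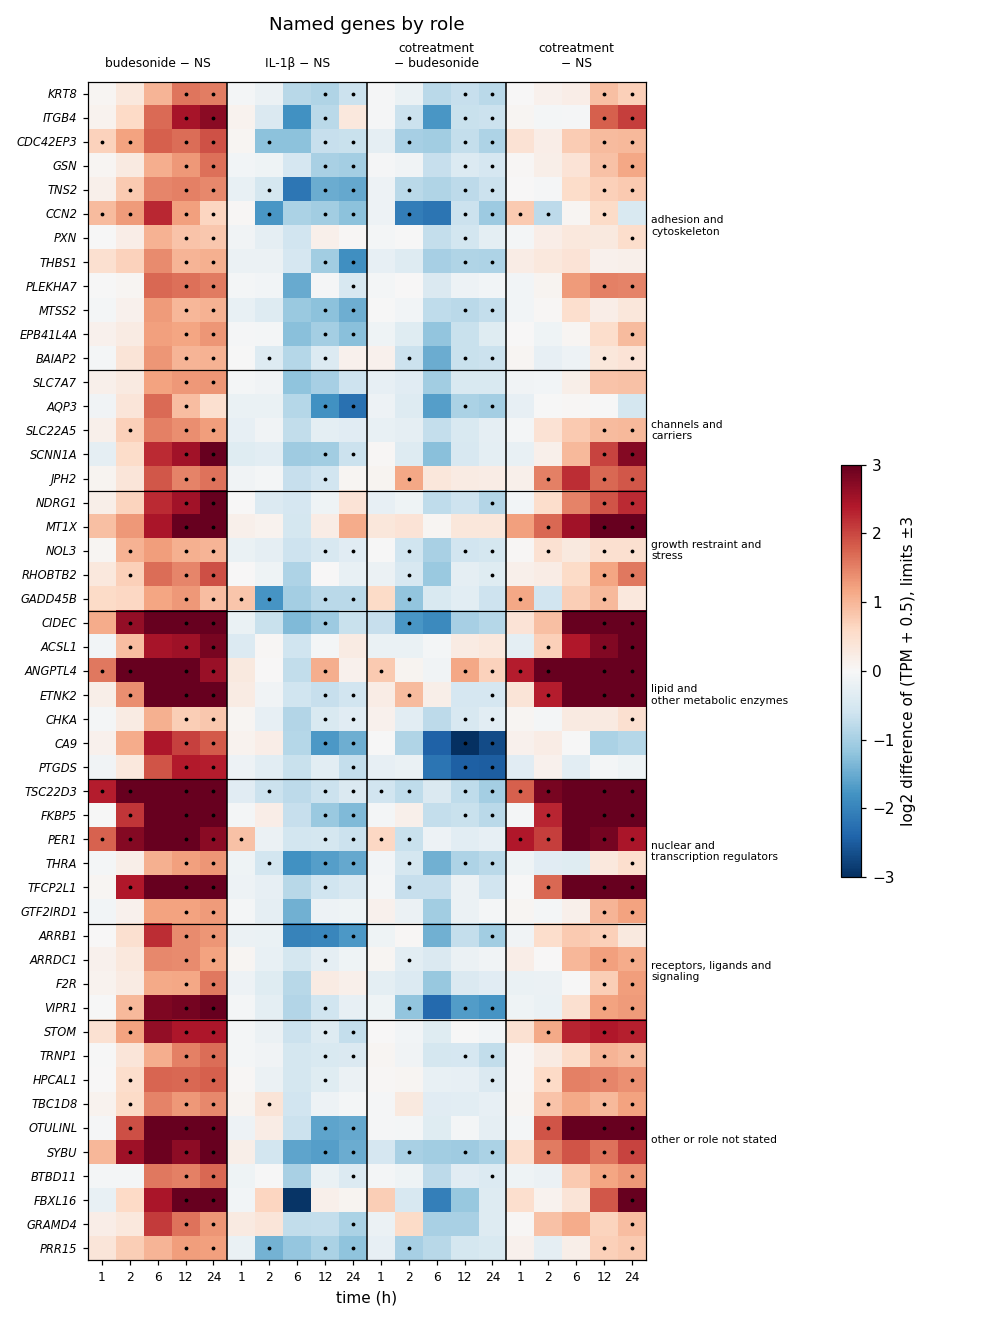
Each row is 1 of the 49 named genes, grouped by role, and each column a time in hours within 1 of 4 comparisons, where cotreatment is IL-1β-plus-budesonide. Colour is the log2 difference of (TPM + 0.5), cut at 3 either way, and dots mark adjusted p of 0.05 or less in limma at 1, 2, 12 and 24 h, with no test at 6 h. ANGPTL4, JPH2 and MT1X are above 0 in cotreatment minus budesonide at 12 h and 24 h, while CA9 and PTGDS are the lowest there.

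The genes are described next by role, a grouping made after their names and values were known, with library values at 24 h, a time the rule did not use, for the 12 genes that led 1 of 4 rankings. The rule fixed the directions with budesonide and IL-1β at 6 h, so the role counts over the other 4 times are read against the shares of all tested genes, which were 16.6% higher with budesonide, 27.6% lower with IL-1β and 12.1% lower in the cotreatment than with budesonide. Levels are in TPM, differences are on the log2(TPM + 0.5) scale as value ± SE and average 1, 2, 12 and 24 h unless a time is given, and levels after ± carry the SD of 3 or 4 libraries.

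Nuclear regulators included TSC22D3, which had the largest mean rise of the 122 genes over the 4 times. Of 11 such members, 11 were higher with budesonide and 6 lower with IL-1β, and 7 were lower in the cotreatment than with budesonide. TSC22D3 mRNA at 24 h stood at 12.2, 12.9, 12.1 and 11.5 TPM in NS, at 8.71, 11.5, 7.34 and 8.36 TPM with IL-1β, at 340.2, 322, 305 and 350.1 TPM with budesonide and at 168, 166, 138 and 174 TPM with IL-1β-plus-budesonide. The budesonide libraries were the highest and lay apart from the cotreatment, which lay apart from NS, while NS and IL-1β overlapped. Over the 4 times budesonide raised it by 3.75 ± 0.06 (adjusted p = 2.5e-52), IL-1β alone differed from NS by -0.51 ± 0.06 and the cotreatment differed from budesonide by -0.78 ± 0.06 (adjusted p = 2.9e-16).

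FKBP5 mRNA at 24 h stood at 9.26, 9.43, 9.28 and 9.51 TPM in NS, at 4.10, 3.06, 2.89 and 3.84 TPM with IL-1β, at 236, 236, 250.4 and 237 TPM with budesonide and at 134, 126, 137 and 154 TPM with IL-1β-plus-budesonide. The 4 groups did not overlap, with IL-1β lowest and budesonide highest. With IL-1β alone it differed from NS at 2 h by 0.19 ± 0.10 and at 24 h by -1.32 ± 0.10 (adjusted p = 2.5e-18), when the cotreatment differed from budesonide by -0.80 ± 0.10 (adjusted p = 1.4e-09). PER1 mRNA stood at 5.17 ± 0.502 TPM in NS, 36.5 ± 3.46 with budesonide and 31.0 ± 5.98 with the cotreatment at 24 h, and its cotreatment level differed from budesonide by -0.15 ± 0.08 (adjusted p = 0.19). TFCP2L1, a grainyhead-family factor, rose with budesonide by 2.41 ± 0.12 (adjusted p = 1.4e-26) and differed by -0.38 ± 0.12 (adjusted p = 0.018) between cotreatment and budesonide. THRA, the thyroid hormone receptor α, fell with IL-1β from 22.5 ± 1.64 to 7.53 ± 1.54 TPM at 24 h, and its cotreatment level differed from NS by 0.08 ± 0.07 (adjusted p = 0.32) over the 4 times.

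The lipid and other metabolic enzymes held both the lowest and the highest difference between cotreatment and budesonide. ANGPTL4, a lipase inhibitor, and CIDEC were counted with them for their part in lipid handling, though neither is an enzyme. Of 18 such members, 18 rose with budesonide, 13 fell and 1 rose with IL-1β, and 14 were lower and 1 higher in the cotreatment than with budesonide. CIDEC, a lipid droplet protein, had the largest 6 h rise, from 3.50 ± 2.42 to 111 ± 31.7 TPM, which helped to choose it. At 24 h its mRNA stood at 4.55, 4.18, 5.96 and 12.3 TPM in NS, at 3.49, 2.78, 3.32 and 5.78 TPM with IL-1β, at 238, 199, 196 and 288 TPM with budesonide and at 128, 114, 109 and 158 TPM with IL-1β-plus-budesonide. Budesonide and the cotreatment did not overlap with each other or with NS, whereas NS and IL-1β did overlap. The cotreatment differed from budesonide at 2 h by -1.74 ± 0.37 (adjusted p = 0.00036), and at 24 h by -0.85 ± 0.37 (adjusted p = 0.15), called with the block at -0.85 ± 0.18 (adjusted p = 0.00037).

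CA9, a hypoxia-linked carbonic anhydrase, had the lowest cotreatment against budesonide. At 24 h its mRNA stood at 4.17, 2.03, 9.49 and 13.0 TPM in NS, at 0.552, 0.321, 4.69 and 5.68 TPM with IL-1β, at 16.7, 15.1, 24.4 and 39.3 TPM with budesonide and at 3.89, 0.939, 4.37 and 4.45 TPM with IL-1β-plus-budesonide. The spread within a group was wide, and the cotreatment overlapped both NS and IL-1β but lay below every budesonide library. The difference from budesonide was -1.65 ± 0.30 (adjusted p = 1.2e-05), and from NS it was -0.36 ± 0.30 (adjusted p = 0.34), called with the block at -0.35 ± 0.15 (adjusted p = 0.046). PTGDS, which makes a prostaglandin of the D series, stood at 1.07, 0.602, 0.982 and 0.882 TPM in NS, at 0.591, 0.435, 0.222 and 0.176 TPM with IL-1β, at 7.38, 8.09, 9.26 and 3.08 TPM with budesonide and at 1.07, 0.852, 0.847 and 0.363 TPM with IL-1β-plus-budesonide. Its cotreatment libraries overlapped those of NS and lay below all those with budesonide, with a difference from budesonide of -1.34 ± 0.14 (adjusted p = 3.2e-12), and 21.6% of its 31-base words occur in transcripts of other genes.

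ANGPTL4 went the other way. At 24 h it stood at 6.74, 5.74, 8.39 and 5.30 TPM in NS, at 4.87, 7.96, 7.99 and 8.27 TPM with IL-1β, at 43.8, 44.6, 40.8 and 36.1 TPM with budesonide and at 70.5, 77.5, 68.3 and 53.1 TPM with IL-1β-plus-budesonide. All cotreatment libraries lay above all budesonide libraries. The cotreatment was higher than budesonide by 0.68 ± 0.09 (adjusted p = 1.4e-08) over the 4 times and by 1.15 ± 0.19 (adjusted p = 8.1e-06) at 12 h, although at 6 h IL-1β alone had lowered it from 4.38 ± 0.959 to 2.41 ± 0.443 TPM, the value that made it a member. Over the other 4 times IL-1β alone raised ANGPTL4 by 0.38 (adjusted p = 0.00031 in limma). ACSL1, which activates long-chain fatty acids, rose with budesonide by 1.56 ± 0.08 (adjusted p = 3.8e-25), while its cotreatment differed from budesonide by 0.04 ± 0.08 (adjusted p = 0.78). ETNK2, an ethanolamine kinase, differed between cotreatment and budesonide by 0.96 ± 0.17 (adjusted p = 1.1e-05) at 2 h and by -0.51 ± 0.17 (adjusted p = 0.036) at 24 h. CHKA, the choline kinase of the same pathway, rose by 0.43 ± 0.05 (adjusted p = 4.9e-10) with budesonide.

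Among receptors and signaling genes, 13 of 13 rose with budesonide and 10 of 13 fell with IL-1β. ARRB1, the β-arrestin that desensitizes G protein-coupled receptors, was 1 of the 3 genes with the lowest IL-1β minus NS difference at 6 h, at 4.02 ± 1.44 TPM against 17.1 ± 1.49 in NS. At 24 h it stood at 22.0, 22.7, 20.9 and 26.7 TPM in NS, at 7.23, 4.70, 7.62 and 7.16 TPM with IL-1β, at 71.3, 44.7, 46.1 and 80.9 TPM with budesonide and at 31.6, 20.9, 25.3 and 39.2 TPM with IL-1β-plus-budesonide. IL-1β lay below every NS library and budesonide above, while the cotreatment overlapped NS. Over the 4 times IL-1β alone differed from NS by -1.01 ± 0.11 (adjusted p = 2.0e-11), more than the cotreatment from budesonide, at -0.46 ± 0.12 (adjusted p = 0.0019). Of its 31-base words 24.9% occur in transcripts of other genes.

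VIPR1, a receptor for vasoactive intestinal peptide, was below 1 TPM in every library without budesonide. At 24 h it stood at 0.281, 0.128, 0.0812 and 0.126 TPM in NS, at 0.101, 0, 0.0644 and 0.0468 TPM with IL-1β, at 5.65, 5.05, 5.32 and 3.54 TPM with budesonide and at 1.40, 1.00, 0.855 and 1.06 TPM with IL-1β-plus-budesonide. Budesonide and the cotreatment each lay apart from NS and from each other. The cotreatment differed from budesonide by -1.18 ± 0.09 (adjusted p = 2.7e-18), whereas IL-1β differed from NS by -0.30 ± 0.09 (adjusted p = 0.0028) from a level near the pseudocount. ARRDC1, an arrestin-domain adaptor, and F2R, the thrombin receptor, rose with budesonide by 0.76 and 0.78, and differed by -0.13 ± 0.05 (adjusted p = 0.073) and -0.37 ± 0.09 (adjusted p = 0.0013) between cotreatment and budesonide. With the block ARRDC1 was called there, at -0.13 ± 0.05 (adjusted p = 0.037).

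The adhesion and cytoskeleton genes were the largest role group, with 27 members, 26 of which rose with budesonide, 17 fell with IL-1β and 18 were lower in the cotreatment than with budesonide. KRT8, a keratin of simple epithelia, was the most abundant member, at 2531 ± 202 TPM in NS, 1629.6 ± 214 with IL-1β, 7363 ± 626 with budesonide and 4207 ± 600.5 in the cotreatment at 24 h. Of the 31-base words of KRT8, 19% occur in transcripts of other genes. TNS2, a focal adhesion protein, stood at 32.4, 36.8, 41.2 and 35.6 TPM in NS, at 13.6, 10.1, 11.8 and 14.1 TPM with IL-1β, at 105, 91.8, 88.0 and 114 TPM with budesonide and at 59.1, 68.5, 55.9 and 71.0 TPM with IL-1β-plus-budesonide. None of its 4 groups overlapped at 24 h. At 24 h the IL-1β difference without budesonide was -1.53 ± 0.16 (adjusted p = 3.6e-12) and with budesonide present it was -0.64 ± 0.16 (adjusted p = 0.0030).

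CCN2, a target of YAP and of transforming growth factor signals, and THBS1, the adhesive glycoprotein thrombospondin, ended close to NS in the cotreatment. Their cotreatment level differed from NS by 0.02 ± 0.10 (adjusted p = 0.86) and 0.21 ± 0.13 (adjusted p = 0.21), against 1.02 ± 0.10 and 0.82 ± 0.13 for budesonide. CCN2 in the cotreatment differed from NS at 2 h by -0.80 ± 0.19 (adjusted p = 0.0014). ITGB4, the hemidesmosomal integrin β4, rose with budesonide from 51.1 ± 5.24 to 342 ± 65.8 TPM at 24 h and stood at 217 ± 34.1 TPM in the cotreatment. The actin-binding GSN and MTSS2 rose by 0.82 and 0.53 with budesonide, and their difference between cotreatment and budesonide was -0.26 ± 0.04 (adjusted p = 2.9e-06) and -0.40 ± 0.10 (adjusted p = 0.00098). PXN and BAIAP2, scaffolds of focal adhesions and of membrane protrusions, differed in that comparison by -0.23 ± 0.06 (adjusted p = 0.0019) and -0.45 ± 0.06 (adjusted p = 3.2e-08). PLEKHA7, at adherens junctions, and EPB41L4A did not pass the test there, at -0.07 ± 0.09 (adjusted p = 0.68) and -0.38 ± 0.17 (adjusted p = 0.10), and with the block EPB41L4A did, at -0.41 ± 0.13 (adjusted p = 0.015).

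Of 14 channels and carriers, with JPH2 counted among them though it is neither, 14 rose with budesonide and 9 fell with IL-1β. In the cotreatment 9 were lower and 1, JPH2, was higher than with budesonide. SCNN1A, the α subunit of the epithelial sodium channel, stood at 6.75 ± 1.53 TPM in NS, 57.9 ± 3.09 with budesonide and 48.1 ± 8.88 in the cotreatment at 24 h, with a difference between the last pair of -0.28 ± 0.13 (adjusted p = 0.12) over the 4 times. AQP3, a water and glycerol channel, differed from NS by -1.12 ± 0.14 (adjusted p = 5.0e-10) with IL-1β, and its cotreatment level differed from NS by -0.21 ± 0.14 (adjusted p = 0.24). SLC22A5, the carnitine carrier, and SLC7A7, a cationic amino acid exchanger subunit, rose with budesonide by 0.88 ± 0.09 (adjusted p = 4.5e-12) and 0.76 ± 0.25 (adjusted p = 0.013). SLC7A7 differed between cotreatment and budesonide by -0.37 ± 0.26 (adjusted p = 0.34), called with the block at -0.39 ± 0.05 (adjusted p = 1.3e-09). JPH2, a junctional membrane protein known from heart muscle, was the member just above the level limit. At 24 h it stood at 0.391, 0.644, 0.517 and 0.449 TPM in NS, at 0.619, 0.526, 0.619 and 0.426 TPM with IL-1β, at 2.78, 2.47, 2.27 and 2.91 TPM with budesonide and at 4.50, 2.73, 2.73 and 2.71 TPM with IL-1β-plus-budesonide. Its cotreatment overlapped budesonide at 24 h, but at 2 h it was higher by 1.17 ± 0.13 (adjusted p = 1.7e-10), and the 4-time difference was 0.43 ± 0.07 (adjusted p = 1.2e-06).

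Of 8 growth restraint and stress genes, 8 rose with budesonide, 4 fell with IL-1β and 6 were lower in the cotreatment. NDRG1, a stress-responsive growth regulator, stood at 398 ± 169 TPM in NS, 3383 ± 1010.2 with budesonide and 1809 ± 405 in the cotreatment at 24 h. MT1X, a metal-binding metallothionein, stood at 23.4, 27.8, 30.7 and 10.4 TPM in NS, at 38.3, 74.8, 62.6 and 26.2 TPM with IL-1β, at 197, 214, 308 and 125 TPM with budesonide and at 237, 311, 381 and 148 TPM with IL-1β-plus-budesonide. Its budesonide and cotreatment libraries overlapped, both above NS, with number 4 lowest in each group, and the cotreatment differed from budesonide by 0.35 ± 0.23 (adjusted p = 0.31). It was higher than the budesonide library of the same number in 14 of 15 such pairs at 1, 2, 12 and 24 h, and with the block the difference was 0.40 ± 0.17 (adjusted p = 0.068). Of its 31-base words 20.3% occur in transcripts of other genes, so its reads may be split between them. NOL3, an apoptosis repressor, RHOBTB2 and GADD45B rose with budesonide by 0.79, 1.11 and 0.86, and differed by -0.44, -0.33 and -0.38 between cotreatment and budesonide, all called at adjusted p of up to 0.015.

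The remaining 31 members have mixed or no stated role, and 29 of them rose with budesonide. FBXL16, an F-box protein, had the lowest IL-1β minus NS difference at 6 h, with 14.0, 5.53 and 5.64 TPM in NS and 0.295, 2.92, 0.173 and 0.163 TPM with IL-1β. At 24 h it stood at 0.554, 2.72, 2.75 and 5.66 TPM in NS, at 2.89, 2.90, 8.68 and 0.306 TPM with IL-1β, at 53.4, 35.1, 49.8 and 40.2 TPM with budesonide and at 32.0, 36.8, 28.6 and 37.9 TPM with IL-1β-plus-budesonide. Budesonide and the cotreatment lay above NS and overlapped each other, and IL-1β overlapped NS. Over the other times IL-1β differed from NS by 0.20 ± 0.35 (adjusted p = 0.68). STOM, an integral membrane protein of lipid rafts, OTULINL and HPCAL1, a calcium sensor, differed between cotreatment and budesonide by -0.04 ± 0.07 (adjusted p = 0.74), -0.10 ± 0.12 (adjusted p = 0.63) and -0.15 ± 0.05 (adjusted p = 0.036). SYBU, a linker of vesicles to kinesin, and PRR15 differed there by -0.87 ± 0.15 (adjusted p = 6.2e-06) and -0.56 ± 0.13 (adjusted p = 0.00070). TRNP1, TBC1D8, BTBD11 and GRAMD4 rose with budesonide by 0.89, 0.85, 0.78 and 0.86, and GTF2IRD1, a transcription factor counted above, by 0.64.

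**Figure D3:**
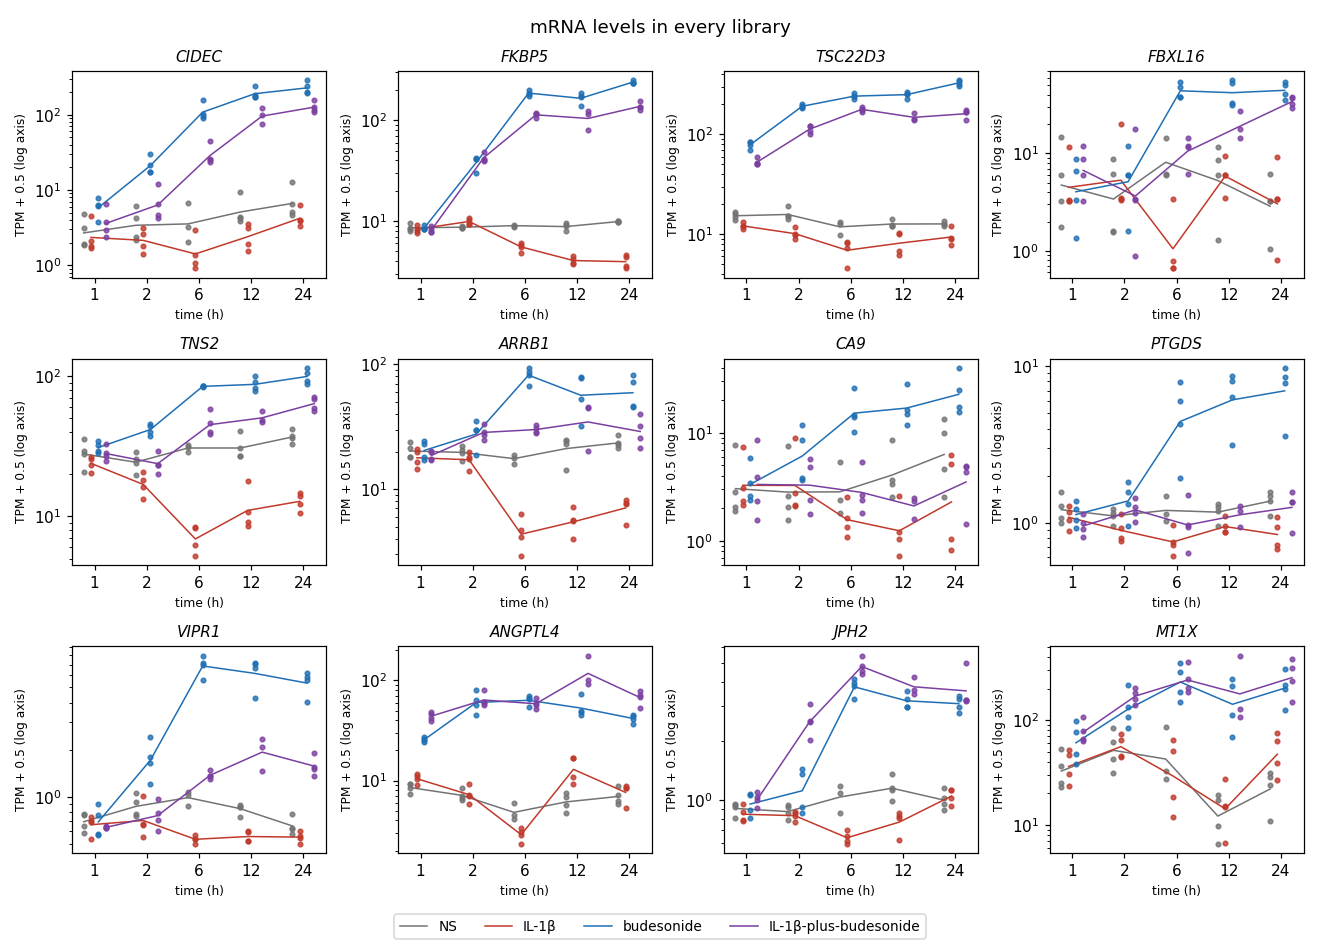
Each panel plots 1 of 12 genes, with time in hours on the x axis and TPM plus 0.5 on a log y axis. Points are single libraries of NS (grey), IL-1β (red), budesonide (blue) and IL-1β-plus-budesonide (purple), 3 or 4 in each group, and lines join the group means of the log values. In CA9 and PTGDS the purple points overlap the grey ones at 24 h, and in ANGPTL4 they lie above the blue ones.

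Whether IL-1β acted differently with budesonide present was tested as an interaction, the IL-1β difference with budesonide minus that without it, over the 4 times. It was called for 27 of 122 genes, 13 above and 14 below 0, beside 15.2% of all tested genes and 10.7% above and 11.5% below 0 among the members. The median of the 122 genes was -0.03 and 95 were not called, which does not show that their 2 differences were equal. With libraries numbered 1 left out, 15 were called, a fit for which no share of all tested genes is given. Under the replicate block 17 were called above and 21 below 0, beside 21.1% of all tested genes called either way. With a log2 interaction of 1 or more required, 0 were called in limma (0.54% of all tested genes). Across the 122 genes the IL-1β difference without budesonide and that with it, which share no library, had a Pearson r of 0.48 and a Spearman rho of 0.50, beside 0.83 and 0.65 over all tested genes. Genes share their libraries and the rule narrowed their range, so these are descriptions. Of the 81 members lowered by IL-1β alone, 70 (86.4%) were also lowered in the cotreatment against budesonide, which is 82.4% of those 85. Over all tested genes the 1175 lowered in both were 32.0% and 73.0% of the respective sets.

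The interactions farthest above 0 were those of ENTPD2, an ATP-hydrolyzing surface enzyme, at 0.98 ± 0.16 (adjusted p = 2.1e-06), OTULINL at 0.66 ± 0.17 (adjusted p = 0.0033), JPH2 at 0.59 ± 0.10 (adjusted p = 2.6e-06) and ARRB1 at 0.56 ± 0.16 (adjusted p = 0.011). ENTPD2 differed from NS by -1.35 ± 0.11 (adjusted p = 1.0e-16) with IL-1β alone and differed by -0.38 ± 0.11 between cotreatment and budesonide. Farthest below 0 were PTGDS at -0.97 ± 0.19 (adjusted p = 0.00014), the phospholipase PLA2G10 at -0.96 ± 0.17 (adjusted p = 1.3e-05), the actin-binding NEXN at -0.90 ± 0.13 (adjusted p = 1.4e-07) and VIPR1 at -0.89 ± 0.12 (adjusted p = 5.6e-08). In these 4 genes the IL-1β difference without budesonide lay between -0.37 ± 0.14 for PTGDS and -0.07 ± 0.09 for NEXN. Without budesonide, PTGDS, PLA2G10 and VIPR1 lay near or below the pseudocount of 0.5 TPM, which limits how far their IL-1β difference can fall there. At 12 h the mean TPM of VIPR1 went from 0.34 in NS to 0.0577 with IL-1β. With budesonide present it went from 5.77 to 1.47 in the cotreatment. As a ratio it thus fell further without budesonide at 12 h, the opposite of its interaction on the log2(TPM + 0.5) scale. At 1, 2 and 24 h, the other times of that interaction, the ratio of means fell further with budesonide. With a pseudocount of 0.1 the interaction was -0.75 ± 0.23 (adjusted p = 0.016) for VIPR1, -1.04 ± 0.27 (adjusted p = 0.0042) for PTGDS and -1.27 ± 0.28 (adjusted p = 0.00043) for PLA2G10. Of the words of PLA2G10, 51.4% occur in transcripts of other genes. ENTPD2, PLA2G10 and NEXN are named for their interaction.

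**Figure D4:**
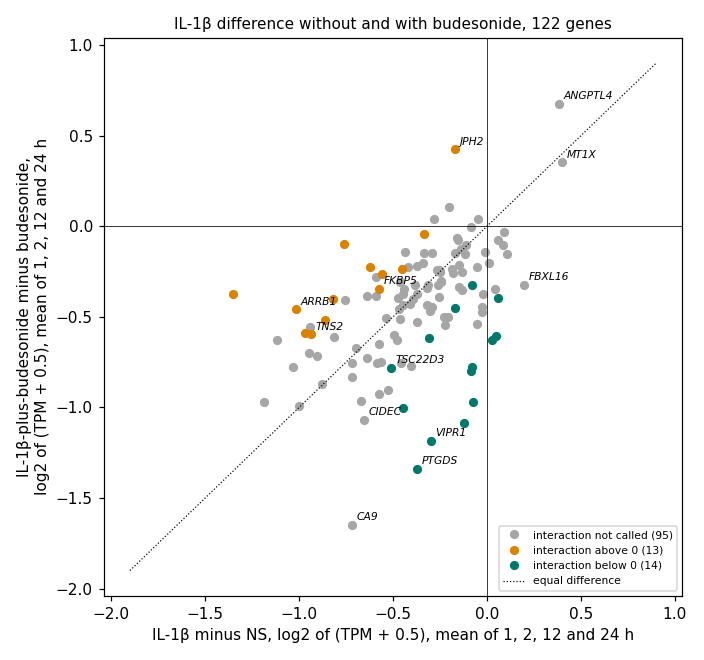
Each point is 1 of the 122 genes, with the IL-1β minus NS difference on the x axis and the cotreatment minus budesonide difference on the y axis, both log2 of (TPM + 0.5) and means of 1, 2, 12 and 24 h. Orange and green mark the 13 and 14 genes whose interaction was called above and below 0 in limma, grey the other 95, and the dotted line marks equal differences. PTGDS, VIPR1 and CA9 lie well below the line, of which CA9 was called only with the replicate block, and JPH2 lies above it.

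Known GR targets served to place the members among other genes of the pathway. From a list of 39 such genes 36 were tested, 10 of them members, and the list was drawn up with results of these data known. Of the 26 that were not members, 22 rose with budesonide and 0 fell, and with IL-1β alone 13 rose and 5 fell. Leaving out the members takes away genes that IL-1β lowered at 6 h, which tilts such counts here and in the following lists. Of all 36 tested, 32 rose with budesonide and 0 fell, and with IL-1β 14 rose and 11 fell. Of all tested genes, 16.6% rose and 22.2% fell with budesonide, 18.3% rose and 27.6% fell with IL-1β, and 10.1% were higher and 12.1% lower in the cotreatment than with budesonide, and the counts of this and the following lists are to be read beside these shares. In the cotreatment against budesonide, 9 of the 26 were higher and 6 lower, and of all 36 tested 10 were higher and 12 lower. DUSP1, a phosphatase of MAP kinases, CEBPD and ZFP36, which destabilizes cytokine mRNAs, rose with budesonide by 2.68, 1.65 and 2.25 and with IL-1β by 0.75, 1.98 and 1.92. PDK4, which restrains glucose oxidation, and RGS2, a G protein regulator, stood at 1.60 and 2.74 for budesonide and -0.83 and -0.27 for IL-1β. The interaction was called below 0 for 14 of the 26 and above 0 for 0. Of all tested genes, 15.2% were called either way, and with the replicate block 11.6% were called above and 9.51% below 0.

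Of 11 ion transport and surfactant genes outside the members, 7 rose and 1 fell with budesonide and 2 rose and 3 fell with IL-1β, with SCNN1B and SCNN1G, the other sodium channel subunits tested, at 1.83 and 2.05 for budesonide and 0.18 and 0.98 for cotreatment minus budesonide. Of 10 lipid handling genes, 4 rose and 0 fell with budesonide, and 3 rose and 3 fell with IL-1β. In the cotreatment 0 were higher and 4 lower than with budesonide. Of 17 clock genes, 5 rose and 7 fell with budesonide, and 3 rose and 8 fell with IL-1β. PER2, which lay just outside the rule, was at 0.46 and -0.54. Of 22 epithelial differentiation and junction genes, 5 rose and 10 fell with budesonide, and 3 rose and 12 fell with IL-1β. Among them KRT18, the partner of KRT8, was at 0.84 and -0.43. Of 23 FOXO-linked growth restraint genes, 12 rose and 3 fell with budesonide, and 10 rose and 5 fell with IL-1β. All 28 NF-κB pathway genes tested rose with IL-1β, and 0 of them were members. The rule took only genes lower with IL-1β at 6 h, so that 0 says nothing about the members. Of 12 reference genes, 3 rose and 1 fell with budesonide, and of 13 mitochondrially encoded genes 4 rose and 0 fell.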

How the data were processed

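Poly(A) mRNA of A549 cells was sequenced in 78 labelled libraries of 20 groups. The authors deposited a signal per gene symbol and library, named TPM. By the submitters' processing notes kallisto and sleuth were used with GRCh38 (hg38), versions not given in the sources used here, and the signal of a library sums to between 812680 and 1009499, so the values were rescaled between libraries. A further library, labelled in the table only, was not used. A deposited table of log2 fold changes and adjusted p-values against NS was not used.

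Values were taken as log2(TPM + 0.5), and genes with 1 TPM or more in at least 3 libraries were fitted with limma 3.58.1 (R 4.3.3, with a mean-variance trend, residual df 58) on all 20 groups together. Comparisons were made at 1, 2, 12 and 24 h and for their mean, two-sided, with Benjamini-Hochberg adjustment over all 13327 genes and a threshold of 0.05. The fit was also run on simulated data with known differences, and the outcome is not given here. Tables and figures were made with Python 3.11.15. The read depth is unknown.

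The members and the gene lists (GR targets, growth restraint, clock, lipid handling, ion transport and surfactant, epithelial differentiation and junctions, NF-κB pathway, IL-1β check, reference, mitochondrially encoded and cell type markers) were chosen with earlier results of these data known. Named members were the 45 with the highest mean with budesonide at 6 h and the 12 with library values, which led the budesonide rise or IL-1β fall at 6 h or were lowest or highest in cotreatment minus budesonide over the 4 times, 49 in all. Others are named with the reason. The 1 h value of 1 member is not reported here.

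Replicate numbers are shared by the groups, and the labels do not say that a number marks a shared experiment. At 1, 2, 12 and 24 h deviations of same-numbered libraries from their group means correlated at 0.123 or more in every pair of budesonide, IL-1β or cotreatment with NS and of cotreatment with budesonide, and at -0.25 or more for cotreatment with IL-1β. At 6 h the lowest such value was 0.064. The pairing is thus read from the data, and values with the replicate number as a block are given where they change a call. Alternatives were other pseudocounts, filters, scalings, a 2-fold minimum, a replicate block and leaving out libraries.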

Additional observations from a re-analysis of the deposited data

Results flagged for a closer look

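In 5 of 48 groups of 4 libraries at 24 h, 1 library stood apart from the other three, with a gap to its neighbour divided by the range of the group above 0.829. Chance passes that limit in about 1 in 20 groups. The ratio was 0.912 for FKBP5 with budesonide, 0.842 for ARRB1 with IL-1β, 0.84 for CA9 in the cotreatment, 0.909 for ANGPTL4 with IL-1β and 0.989 for JPH2 in the cotreatment. The part of these single libraries in the results was not tested one by one.

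Among the 12 genes with library values, the IL-1β difference with budesonide minus that without it passed the limma test of the interaction over 1, 2, 12 and 24 h in 7. It was above 0 for FKBP5 (0.23), TNS2 (0.34), ARRB1 (0.56) and JPH2 (0.59). It was below 0 for TSC22D3 (-0.27), PTGDS (-0.97) and VIPR1 (-0.89). With the replicate block CA9 (-0.92) and CIDEC (-0.42) passed it too. Without budesonide PTGDS and VIPR1 lay near or below the pseudocount of 0.5 TPM. As ratios of mean TPM, VIPR1 fell further without budesonide than with it at 12 h, and further with budesonide at 1, 2 and 24 h. With a pseudocount of 0.1 the interaction of TSC22D3 was -0.25 (adjusted p = 0.059 in limma).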

How the results depend on the processing

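The counts over 1, 2, 12 and 24 h were 119 for budesonide against NS, 81 for IL-1β against NS, 85 for cotreatment against budesonide, 87 for cotreatment against NS, 111 for cotreatment against IL-1β and 27 for the interaction. With genes of a mean of 5 TPM or more, which tests fewer members, they were 74, 50, 49, 62, 73 and 16. The number of members tested under that filter and the shares of all genes are not given, so these counts cannot be set against the others. With a 2-fold minimum they were 50, 5, 6, 27, 53 and 0, beside 1.28%, 0.255%, 0.113%, 2.24%, 0.983% and 0.540% of all tested genes. Leaving out replicates gave 114 to 120, 71 to 82, 69 to 86, 79 to 91, 106 to 114 and 15 to 30, and the interaction was called for 15 without replicate 1, whose cause was not tested. No shares of all tested genes are given for these ranges. The number of members was 108 to 116 without 1 replicate number. With the replicate block the counts were 120, 85, 93, 93, 114 and 38, beside 19.1%, 30.7%, 15.7%, 19.5%, 20.3% and 21.1% of all tested genes. The single-time counts that the block moved by over 1.5 times are given with the results. Of the 147 single results the block turned 6 into calls and ended none.

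For the 49 named genes in 3 comparisons, 147 results were recomputed under up to 14 settings, and 1880 of 2049 values kept their direction and side of the threshold. A further 144 lost the call, 54 of them outside the 2-fold minimum, 15 gained it and 10 changed sign. Those 10 had not passed the test. Without each replicate number in turn, IL-1β against NS ranged over -0.0941 to 0.0361 for NDRG1, -0.1064 to 0.0118 for ACSL1, -0.1812 to 0.0179 for RHOBTB2, -0.0625 to 0.0213 for F2R and -0.2529 to 0.4678 for FBXL16. Cotreatment against budesonide ranged over -0.0123 to 0.0998 for ACSL1 and -0.1869 to 0.0380 for PLEKHA7. Without the farthest libraries, NDRG1 was at 0.0267 for IL-1β against NS. The unknown depth leaves the counting error of low genes unstated.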
